A study of Mus musculus with 8 samples.

Results

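The CXC chemokine genes of mouse chromosome 5 form a run of genes for small secreted proteins that attract leukocytes. The 10 genes described here (in chromosomal order Cxcl5, Ppbp, Pf4, Cxcl15, Cxcl1, Cxcl2, Cxcl9, Cxcl10, Cxcl11 and Cxcl13) were taken with 5 kb of sequence on each side of their RefSeq span. They are 10 of 14807 genes placed on the part of the genome analysed. Of these, 14806 are protein-coding, Cxcl11 being the exception, and further non-coding genes and pseudogenes were not among the gene regions and ends tested. The regions of the 10 together held 1392 CpGs, each listed as 2 cytosine positions (2784 in all), in 123421 bases. The regions are not all separate: those of Ppbp and Pf4 share 162 positions, and those of Cxcl5 and Ppbp share 70.

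Chemokines bind G protein-coupled receptors on leukocytes and guide them towards the cells that release them. Cxcl1, Cxcl2, Cxcl5 and the product of Ppbp act through the receptor Cxcr2 and draw neutrophils, and many liver cell types can make Cxcl1 and Cxcl2 after inflammatory signals that act through NF-kB. Cxcl9, Cxcl10 and Cxcl11 are induced by interferons and attract activated T cells through Cxcr3, while Cxcl13 attracts B cells through Cxcr5. Ppbp and Pf4 encode proteins stored in platelet granules and are transcribed mainly in megakaryocytes. Methylation of CpGs near a gene start is generally low where that start is active or kept open.

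Liver DNA from male C57BL/6J mice, an inbred laboratory strain, was measured by whole-genome bisulfite sequencing in 8 libraries. By title, 4 are NASH (nonalcoholic steatohepatitis, inflamed fatty liver) and 4 are WT. Both groups were wild type, were bought at 8 weeks of age and were fed for 28 weeks, the NASH mice a diet rich in fat, cholesterol and fructose and the others a normal diet (called ND here). The labels contradict themselves, because libraries titled WT have NASH in the treatment field and the other way round. The titles were followed, as the table's column names do, and a wrong title would turn every direction below. No label ties a library to its own mouse, so the p-values cover the spread between libraries, which may be technical.

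Each library had a percent methylation at 30729668 cytosine positions, with no read counts, so depth and its precision are unknown. Library means were 71.0% to 72.3% in NASH and 71.1% to 72.3% in ND, and values of exactly 0, which can also stand for positions without reads, made up 12.3% to 13.0% and 12.8% to 13.1% of positions. The liver label was set against hepatocyte marker genes. Their regions averaged 45.8% to 46.7% in ND libraries, against a median of 67.9% over all gene regions in ND. Levels are means over positions. A value after ± is the SD of the 4 libraries of a group (n = 4). Each difference is the NASH mean minus the ND mean, in points of percent methylation. Coordinates refer to mm10 (GRCm38).

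The gene starts covered nearly the whole range of methylation levels. For the 8 genes whose strand is known, the 5' end was the stretch with 1000 bases before the gene start and 500 after it. In order of their ND means, Cxcl10 had the lowest 5' end, at 12.9% ± 1.52 in NASH and 10.8% ± 1.29 in ND, followed by Cxcl1 at 24.4% ± 5.26 and 14.1% ± 6.65 and by Cxcl2 at 19.7% ± 1.47 and 21.7% ± 4.61. In NASH the mean of Cxcl2 lay below that of Cxcl1. In ND these 3 do not separate in order, since the libraries of Cxcl1 overlapped those of the other two. Cxcl9 (55.4% ± 4.62 in NASH and 52.1% ± 4.79 in ND) and Cxcl13 (59.2% ± 3.63 and 60.2% ± 4.04) were intermediate. Cxcl15 (77.1% ± 3.36 and 74.2% ± 2.74), Pf4 (62.6% ± 5.76 and 75.3% ± 7.46) and Ppbp (84.6% ± 3.84 and 84.6% ± 1.56) were high. For comparison, the median 5' end over 11425 genes with a strand was at 13.5% in NASH and 13.6% in ND, so in ND only Cxcl10 lay below it by its mean.

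The promoter sequences from RefSeq (GRCm38.p6), 250 bases before to 50 after the gene start, are shown for the lowest and the highest 5' end (Cxcl10 and Ppbp) and for the 4 largest differences (Pf4, Cxcl1, Cxcl9 and Cxcl15). They are written 5' to 3' on the strand of the gene, and capitals mark CpGs. The Cxcl10 promoter lies at chr5:92348840-92349139 on the minus strand, and that of Cxcl9 at chr5:92328030-92328329 on the minus strand. On the plus strand lie those of Cxcl1 at chr5:90890995-90891294, Cxcl15 at chr5:90794284-90794583, Pf4 at chr5:90772185-90772484 and Ppbp at chr5:90768268-90768567.
Cxcl10: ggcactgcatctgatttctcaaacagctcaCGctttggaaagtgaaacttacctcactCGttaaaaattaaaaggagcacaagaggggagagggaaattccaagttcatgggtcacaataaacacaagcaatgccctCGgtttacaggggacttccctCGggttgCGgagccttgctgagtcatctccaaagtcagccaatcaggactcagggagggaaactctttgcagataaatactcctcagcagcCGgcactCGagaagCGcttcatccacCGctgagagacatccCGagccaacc
Cxcl1: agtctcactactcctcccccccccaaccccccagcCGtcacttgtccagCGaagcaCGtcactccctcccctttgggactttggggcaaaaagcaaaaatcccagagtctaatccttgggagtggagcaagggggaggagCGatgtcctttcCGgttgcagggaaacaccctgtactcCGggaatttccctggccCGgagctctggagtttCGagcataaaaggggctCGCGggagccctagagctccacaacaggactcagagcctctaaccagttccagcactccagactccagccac
Cxcl9: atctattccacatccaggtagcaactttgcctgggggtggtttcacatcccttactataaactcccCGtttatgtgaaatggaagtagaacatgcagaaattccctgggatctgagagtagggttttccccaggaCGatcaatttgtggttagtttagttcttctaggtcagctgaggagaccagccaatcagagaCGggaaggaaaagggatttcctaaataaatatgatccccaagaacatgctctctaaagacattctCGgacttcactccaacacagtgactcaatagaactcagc
Cxcl15: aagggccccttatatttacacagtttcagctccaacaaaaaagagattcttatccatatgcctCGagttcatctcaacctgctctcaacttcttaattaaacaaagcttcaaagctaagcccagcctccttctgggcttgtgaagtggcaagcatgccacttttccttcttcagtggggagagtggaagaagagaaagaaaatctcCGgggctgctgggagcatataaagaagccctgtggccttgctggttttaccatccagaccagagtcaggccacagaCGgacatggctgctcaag
Pf4: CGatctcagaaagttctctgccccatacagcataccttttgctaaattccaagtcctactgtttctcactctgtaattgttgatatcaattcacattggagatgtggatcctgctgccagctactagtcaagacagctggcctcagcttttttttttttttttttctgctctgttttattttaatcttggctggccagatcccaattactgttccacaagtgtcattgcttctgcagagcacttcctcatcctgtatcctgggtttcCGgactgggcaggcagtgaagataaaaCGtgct
Ppbp: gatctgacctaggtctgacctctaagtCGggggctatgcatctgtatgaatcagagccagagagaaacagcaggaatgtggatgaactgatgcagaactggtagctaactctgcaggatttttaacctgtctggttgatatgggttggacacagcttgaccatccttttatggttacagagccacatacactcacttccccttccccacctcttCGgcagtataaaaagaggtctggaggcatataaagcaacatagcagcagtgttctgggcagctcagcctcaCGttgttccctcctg

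The promoters differ in how many CpGs they hold. The Cxcl10 and Cxcl1 promoters hold 10 CpGs each and that of Cxcl2 holds 11, while Cxcl9 has 4 and Cxcl13, Cxcl15, Pf4 and Ppbp have 3 each. Within these 300 bases the Cxcl10 promoter averaged 0.250% ± 0.5 in NASH and 0.877% ± 0.630 in ND. At 5 of its 10 CpGs every library of both groups was listed at 0. The 3 CpGs of the Ppbp promoter averaged 64.2% ± 10.7 in NASH and 62.2% ± 5.70 in ND.

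Both strands of the 8 promoters were searched for short motifs. The TATA box letters TATAAA, found in 13.6% of 32851 promoters of this length, occurred in Ppbp at 2 places, and in Cxcl15, Cxcl9 and Cxcl13. The matches began at bases -30 and -8 in Ppbp, -27 in Cxcl15, -46 in Cxcl13 and, far from the gene start, -195 in Cxcl9. The gamma-activated site letters TTCNNNGAA, found in 8.30%, were in none of these windows.

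**Figure D1:**
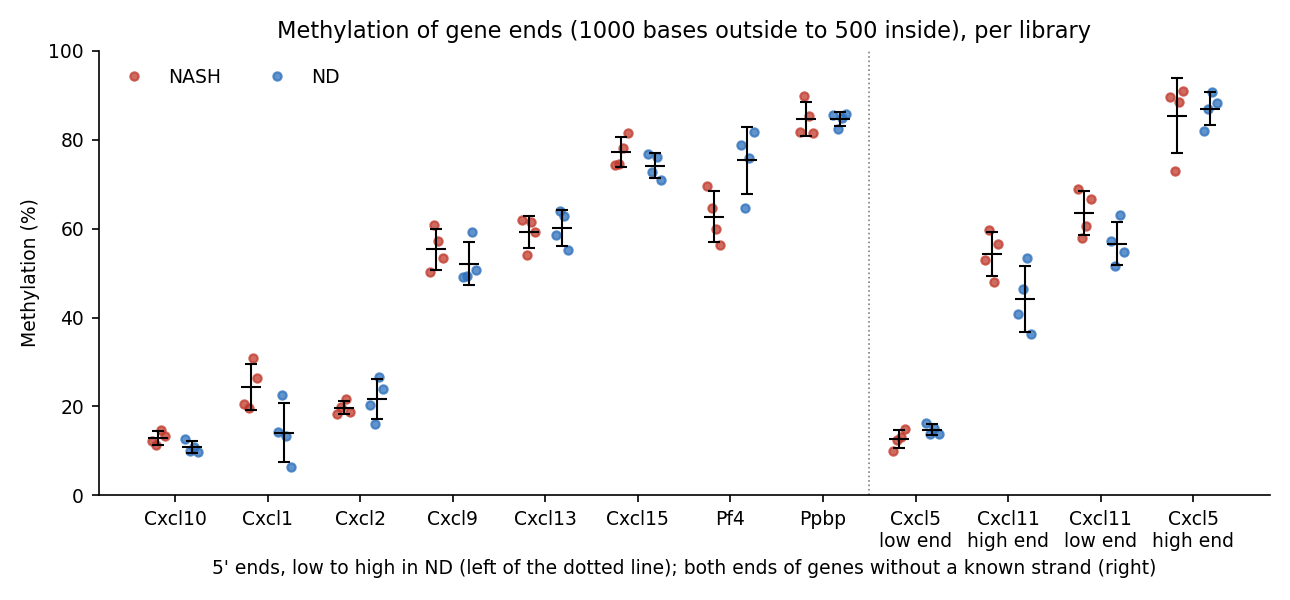
Methylation (%) of gene ends by library, NASH left of ND for each gene, with bars for the mean and SD (n = 4). The 5' ends run from Cxcl10, near 11% in ND, to Ppbp, near 85%, and the ends of Cxcl5 and Cxcl11, whose strand is not known here, stand right of the dotted line.

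None of the 8 5' ends, and none of the 20 ends of the 10 genes, differed between NASH and ND after adjustment over all 28745 ends tested (limma, Benjamini-Hochberg adjusted p under 0.05), where 0.31% of all ends were called. Of the 20 ends, 3 had an unadjusted p under 0.05, and 12.6% of all ends did. They were the 5' ends of Cxcl1 and Pf4 and the high end of Cxcl11.

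Over the whole regions, 3 of the 10 genes differed in NASH, where 9.34% of 14679 gene regions were called in either direction. Methylation was higher at Cxcl1 and Cxcl11, where 5.99% of all regions were called higher. It was lower at Ppbp, where 3.34% were called lower. The groups did not overlap at 4 of the 10 regions (Cxcl1, Cxcl11, Ppbp and Cxcl15), against 17.7% of all regions. By sign alone, 4 regions were higher and 6 lower, and 39.8% of all regions had a difference above 0. The median difference of the 10 was -0.67 points and that of all regions -0.28 points, and the mean over the 10 regions was 70.8% ± 0.230 in NASH and 71.0% ± 0.969 in ND. An unadjusted p under 0.05 was reached by 5 of the 10, against 24.7% of all regions. Whole liver holds many cell types, and a changed share of a cell type cannot be told apart from changed methylation within cells.

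**Figure D2:**
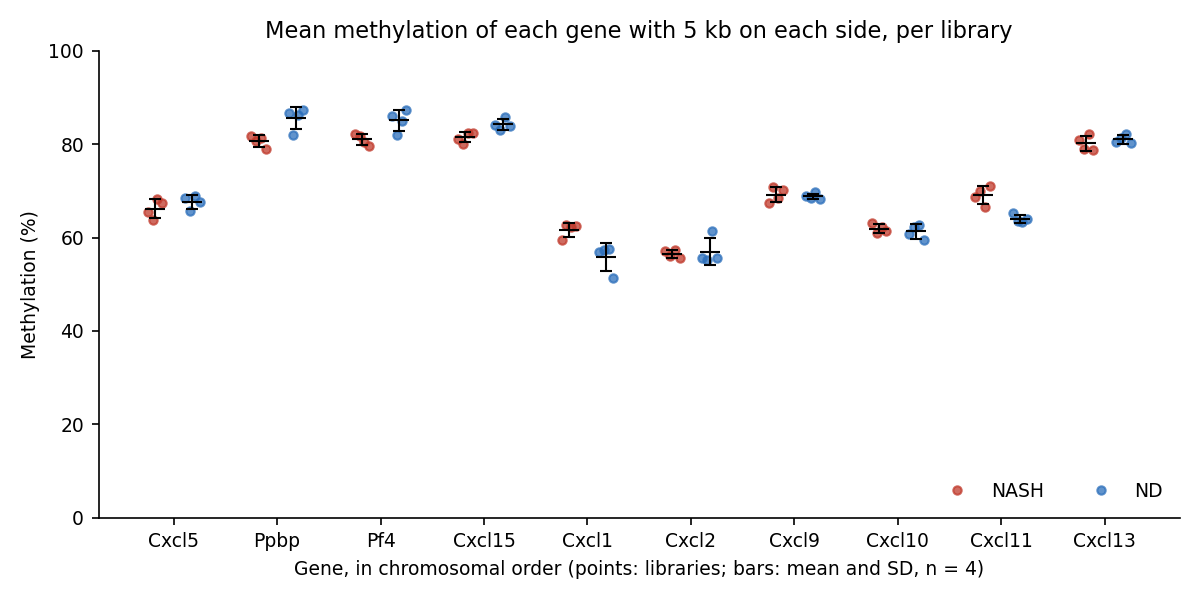
Mean methylation (%) of each gene with 5 kb on each side, in chromosomal order, with 1 point per library, NASH left of ND, and bars for the mean and SD (n = 4). NASH libraries lie above all ND libraries at Cxcl1 and Cxcl11 and below all of them at Ppbp and Cxcl15.

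Among the neutrophil attractants, Cxcl1 was more methylated in NASH. Its region (gene at chr5:90891245-90893121, plus strand) was at 59.5%, 62.6%, 62.3% and 62.4% in the NASH libraries and at 56.9%, 57.4%, 57.5% and 51.3% in the ND libraries. All NASH libraries were above all ND libraries, and ND 4 stood below the other three. The difference was 5.91 points (SE 1.41, limma adjusted p = 0.0327). The call was lost without NASH 2 (adjusted p = 0.0781), NASH 3 (0.0635), NASH 4 (0.0919) or ND 1 (0.0649). Exact zeros made up 5.90% to 10.8% of the positions of the region in NASH and 9.72% to 24.0% in ND. With every zero left out the difference was -0.16 points (adjusted p = 0.964). With only doubtful zeros left out, those amid highly methylated neighbours, it was 5.79 points (adjusted p = 0.0473).

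The difference at Cxcl1 was spread unevenly over the region. The 5 kb before the gene averaged 59.7% ± 2.84 in NASH and 53.6% ± 1.93 in ND, and the gene itself 46.8% ± 3.0 in NASH and 36.4% ± 7.68 in ND, in both cases without overlap. The gene span alone did not pass the test (10.4 points, SE 3.60, adjusted p = 0.129 over 14545 spans, of which 7.94% were called). The 5 kb after it averaged 76.9% ± 4.52 in NASH and 75% ± 4.96 in ND. At the 5' end the NASH libraries had 20.5%, 19.7%, 30.9% and 26.4% and the ND libraries 14.2%, 22.5%, 13.4% and 6.27%, so that ND 2 lay within the NASH range. That difference was 10.3 points (SE 3.49, adjusted p = 0.249). Zeros made up 15% to 37.5% of these positions in NASH and 25% to 70% in ND, and with every zero left out the difference was 4.90 points.

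Upstream of Cxcl1 lay the largest window difference of all 10 regions. In the 1 kb window at chr5:90888001-90889000, centred 2.74 kb before the gene start, the NASH libraries had 53.3%, 60.7%, 50.1% and 61.6% and the ND libraries 21.6%, 34.0%, 34.4% and 29.7%. The lowest NASH library stood above the highest ND library. The difference was 26.5 points (SE 4.06, limma adjusted p = 0.0745 over 1597857 windows), and with every zero left out it was 22.6 points (adjusted p = 0.0317). All 9 CpGs of the window had a higher mean in NASH, by 12.3 to 44.0 points. The window was picked as the largest difference of its region, so a shared sign among its CpGs follows in part from that choice. The same holds for the CpG counts of the other largest windows below. At the CpG nearest the gene, the levels were 43.6%, 60.3%, 40.0% and 64.4% in NASH and 12.5%, 0%, 11.5% and 8.33% in ND. The windows next to it were at 84.0% in NASH and 82.0% in ND on the far side and at 90.3% and 89.5% on the side of the gene.

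In the Cxcl1 promoter shown above, the 10 CpGs averaged 20.2% ± 8.27 in NASH and 9.49% ± 11 in ND, with overlap. The outermost CpGs, at bases -215, -201 and -194, differed by -1.74, -0.57 and 0.14 points. The 7 CpGs from base -110 to -20 were all listed at 0 in ND 1 and ND 4 and all above 0 in ND 2, while ND 3 was above 0 at base -20 only. NASH 4 was also listed at 0 at bases -110, -98, -72 and -55, and the other NASH libraries were above 0 at all 7. At the CpG at -39, the NASH libraries had 10%, 20%, 18.8% and 25%, while ND had 12.5% in ND 2 and 0 in the other three.

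**Figure D3:**
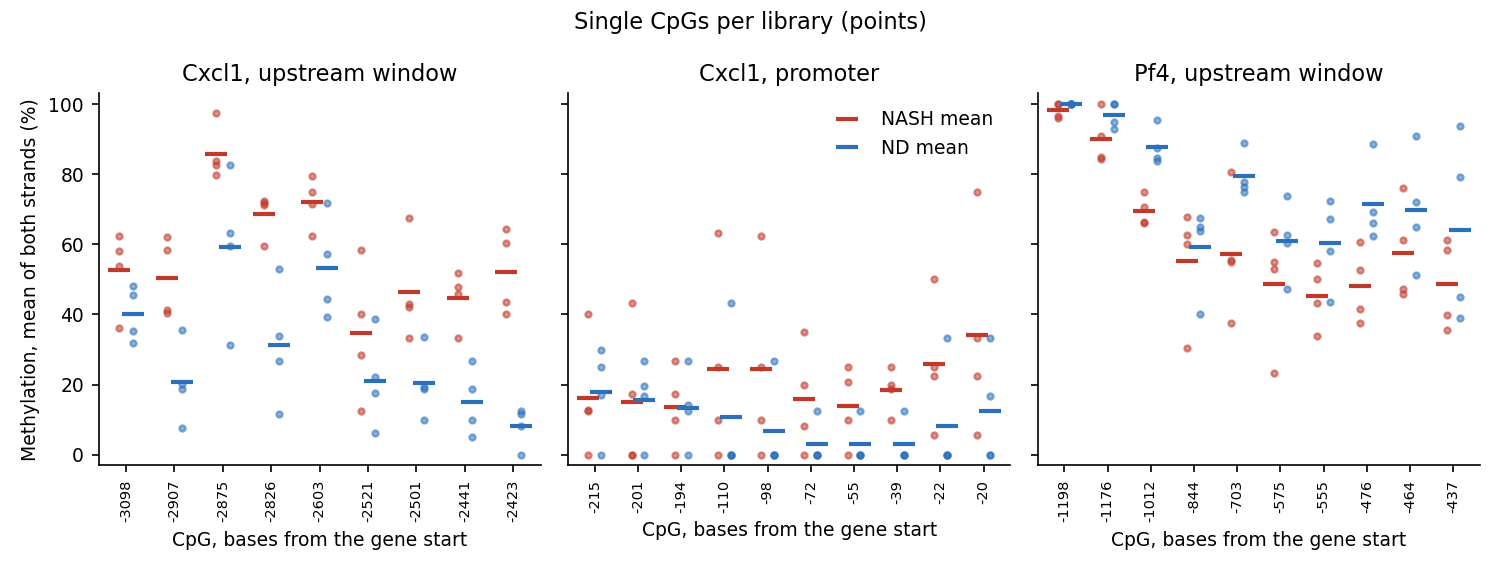
Methylation (%) of single CpGs, averaged over both strands, in the window upstream of Cxcl1, in the Cxcl1 promoter and in the window upstream of Pf4, NASH left of ND at each CpG; points are libraries and bars are means, and CpGs are evenly spaced in order of position. NASH means exceed ND means at all 9 CpGs of the Cxcl1 window and lie below them at all 10 CpGs of the Pf4 window. Both windows were picked as the largest differences of their regions.

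Cxcl2, the close relative of Cxcl1 that follows it at chr5:90903899-90905938 (plus strand), did not pass the test. Its region had 57.1%, 56.0%, 57.3% and 55.6% in NASH and 55.6%, 55.2%, 61.5% and 55.7% in ND. ND 3 stood above all other libraries, and the difference was -0.51 points (SE 1.32, adjusted p = 0.853). In its promoter the 11 CpGs averaged 7.89% ± 5.13 in NASH and 7.06% ± 5.19 in ND. The largest of its windows, at chr5:90906001-90907000 behind the gene, differed by -6.96 points (adjusted p = 0.631).

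Cxcl5 (chr5:90759298-90761625), another Cxcr2 ligand, had a gene of low mean methylation between highly methylated flanks. The gene averaged 18.4% ± 3.89 in NASH and 16.5% ± 3.26 in ND. The 1 kb window from 90759001, over its low end, was at 7.57% ± 2.75 in NASH and 6.31% ± 2.49 in ND. The next window was at 40.1% ± 11.7 in NASH and 33.2% ± 6.83 in ND. The window over the high end, with 6 positions, was at 89.2% ± 2.72 and 94.1% ± 2.93. The 5 kb on the low side averaged 78.6% ± 0.865 in NASH and 80.8% ± 1.15 in ND, and the 5 kb on the high side 85.8% ± 3.11 and 88.5% ± 1.11. Its low end was at 12.6% ± 2.07 in NASH and 14.8% ± 1.18 in ND, and its high end at 85.4% ± 8.41 and 86.9% ± 3.72. The region differed by -1.42 points (SE 1.05, adjusted p = 0.453). Its largest window, at chr5:90758001-90759000, differed by -10.9 points (adjusted p = 0.431).

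Cxcl15, a chemokine described mainly in mouse lung (gene at chr5:90794534-90803067, plus strand), had a highly methylated region with a lower promoter. The 3 CpGs of its promoter averaged 60.6% ± 12.1 in NASH and 54.9% ± 5.59 in ND, with overlap. The region had 81.2%, 80.1%, 82.5% and 82.3% in NASH and 84.0%, 83.0%, 85.9% and 83.9% in ND. The groups did not overlap, but the difference of -2.68 points (SE 0.738) missed the threshold (adjusted p = 0.0548), and passed it without ND 2 (0.0498). The gap lay mostly before the gene, where the 5 kb averaged 72.0% ± 3.84 in NASH and 77.2% ± 2.21 in ND. The window at chr5:90790001-90791000, the largest difference of the region, had 70.8%, 45.9%, 60.5% and 62.0% in NASH and 73.2%, 81.6%, 78.1% and 74.9% in ND. That was a difference of -17.1 points (adjusted p = 0.217), with 10 of 11 CpGs lower in NASH.

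The platelet genes Ppbp (chr5:90768518-90770063, plus strand) and Pf4 (chr5:90772435-90773383, plus strand) were among the most methylated regions in ND, at the 98.1 and 97.5 percentiles of all gene regions. The Ppbp region had 81.8%, 80.6%, 81.2% and 78.9% in NASH and 86.8%, 82.0%, 86.3% and 87.4% in ND. All NASH libraries were below all ND libraries, and ND 2 was the nearest to them. The difference was -4.99 points (SE 1.17, limma adjusted p = 0.0310). The call was lost without NASH 2 (adjusted p = 0.0675), NASH 4 (0.0894), ND 1 (0.0887), ND 3 (0.0759) or ND 4 (0.0797).

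The lower level of the Ppbp region lay in its flanks and not in the gene. The gene averaged 87.9% ± 2.04 in NASH and 86.7% ± 1.01 in ND (1.20 points, adjusted p = 0.550). The 5 kb after it, which hold Pf4, averaged 75.1% ± 3.01 in NASH and 83.4% ± 4.74 in ND, and the 5 kb before it 84.9% ± 2.31 and 88.1% ± 1.11. Its 5' end differed by -0.07 points (adjusted p = 0.993). The largest window, chr5:90766001-90767000, rests on 3 CpGs and differed by -14.9 points (adjusted p = 0.254).

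The Pf4 region had 82.3%, 81.8%, 80.4% and 79.6% in NASH and 86.1%, 81.9%, 85.0% and 87.3% in ND, where ND 2 fell within the NASH range. Its difference of -4.06 points (SE 1.12) missed the threshold (adjusted p = 0.0549) and passed it without ND 2 (-5.12 points, adjusted p = 0.0112) or with doubtful zeros, those amid highly methylated neighbours, left out (0.0122). Its 5' end had the largest difference of the 8: 69.6%, 64.7%, 59.8% and 56.4% in NASH and 78.9%, 64.7%, 76.0% and 81.8% in ND. That was -12.7 points (SE 4.16, adjusted p = 0.228). The largest window of the region, just before the gene at chr5:90771001-90772000, differed by -13.1 points (adjusted p = 0.299). All 10 CpGs of that window had a lower mean in NASH, by 1.80 to 23.4 points. The 3 CpGs of the Pf4 promoter had 50.6%, 48.8%, 45.2% and 49.0% in NASH and 59.6%, 57.4%, 59.5% and 80.9% in ND, without overlap. At each of the 3 CpGs alone the groups overlapped. Of the 8 promoters only those of Pf4 and Cxcl9 did not overlap, and the share over all promoters was not computed.

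The region of Cxcl11, an interferon-induced Cxcr3 ligand in many mammals (chr5:92359544-92363296), was more methylated in NASH. RefSeq lists the gene of C57BL/6J mice as a transcribed pseudogene. The NASH libraries had 68.7%, 70.1%, 66.6% and 71.1% and the ND libraries 65.2%, 63.6%, 63.3% and 64%, with every NASH library above every ND library. The difference was 5.10 points (SE 0.929, limma adjusted p = 0.0110), and it passed with each library left out in turn (adjusted p = 0.00517 to 0.0341). With every zero left out it was 3.23 points (adjusted p = 0.0624). Zeros made up 4.13% to 8.50% of the positions in NASH and 7.04% to 10.2% in ND.

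That difference lay on the high side of the gene. There the 5 kb had 59.0%, 65.2%, 56.1% and 65.5% in NASH and 54.2%, 50.2%, 49.3% and 47.1% in ND, 11.2 points apart and without overlap. The gene averaged 81.6% ± 1.69 in NASH and 80.6% ± 1.01 in ND (1.01 points, adjusted p = 0.561), and the low side 70.2% ± 2.27 and 69.9% ± 2.34. The largest window, chr5:92365001-92366000, had 59.6%, 68.2%, 52.4% and 66.3% in NASH and 44.3%, 50.6%, 40.1% and 45.2% in ND (16.6 points, SE 4.21, adjusted p = 0.177), with 22 of 26 CpGs higher in NASH. The windows before it, named after their values were seen, differed by 13.3 and 14.2 points.

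The pseudogene Gm2673, at chr5:92363903-92365501, lies in that stretch. Its span was at 64.4% ± 7.11 in NASH and 46.6% ± 5.30 in ND, without overlap. A pseudogene can have near-identical copies elsewhere, so its values are uncertain. The much longer gene Art3, whose span (chr5:92331799-92414628, plus strand) holds Cxcl10 and Cxcl11 whole, was at 70.6% ± 0.646 in NASH and 70.8% ± 0.604 in ND with its 5 kb flanks (adjusted p = 0.842).

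**Figure D4:**
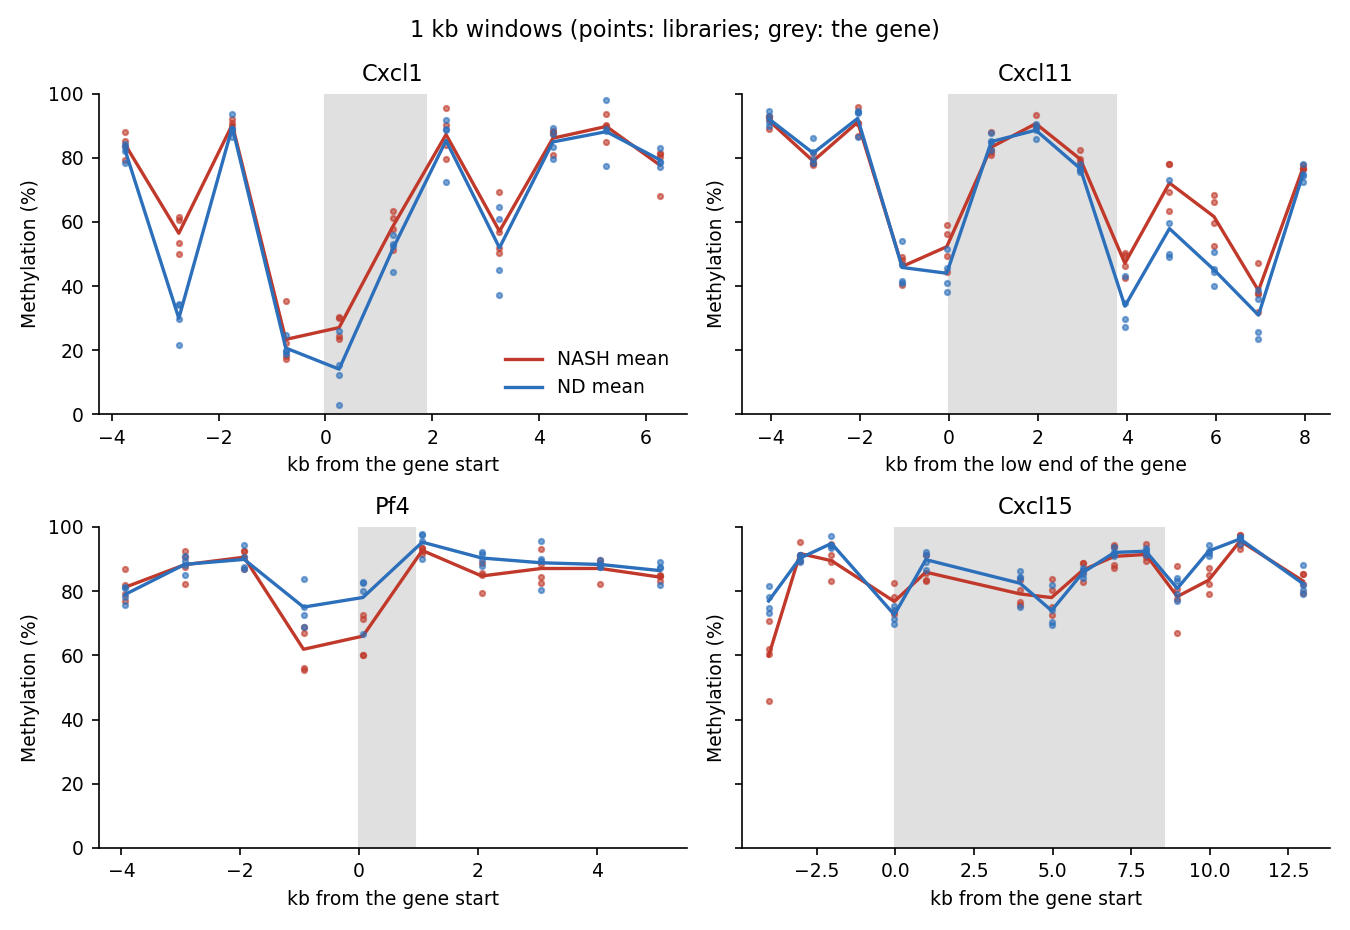
Methylation (%) of the 1 kb windows tested around Cxcl1, Cxcl11, Pf4 and Cxcl15 against the distance (kb) of the window centre from the gene start, or from the low end for Cxcl11; points are libraries, lines join group means across windows with too few positions, and grey marks the gene. NASH lies above ND 2.74 kb before Cxcl1 and above it on the high side of Cxcl11, and lies below ND before Pf4 and before Cxcl15.

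The other Cxcr3 ligands did not pass the test over their regions. Cxcl10 (chr5:92346638-92348889, minus strand) had 63.1%, 60.9%, 62.3% and 61.4% in NASH and 60.8%, 62.3%, 62.8% and 59.4% in ND, with overlap and a difference of 0.61 points (SE 0.83, adjusted p = 0.701). The window over its 3' end, chr5:92346001-92347000, had 85.6%, 85.6%, 82.6% and 71.9% in NASH and 89.4%, 90.8%, 93.1% and 96.5% in ND. It was lower in every NASH library than in every ND library, with a difference of -11.1 points (adjusted p = 0.216).

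Cxcl9 (chr5:92321331-92328079, minus strand) had 67.5%, 70.8%, 68.4% and 70.1% in NASH and 68.9%, 68.4%, 69.7% and 68.2% in ND, a difference of 0.41 points (SE 0.761, adjusted p = 0.788). Its gene span averaged 63.0% ± 3.36 in NASH and 58.9% ± 3.21 in ND. In its largest window, chr5:92323001-92324000 inside the gene, all 11 CpGs had a higher mean in NASH and the window differed by 12.8 points (adjusted p = 0.378). The 4 CpGs of its promoter averaged 20.1% ± 0.863 in NASH and 14.2% ± 3.45 in ND, without overlap. The share of all promoters without overlap was not computed. Not all 4 CpGs went in the same direction. The outermost, at base -184, was at 22.6% ± 5.57 in NASH and 32.6% ± 1.52 in ND, and the CpG at base 11 of the gene at 23.0% ± 12.1 and 3.49% ± 2.43.

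Cxcl13, the B cell attractant (chr5:95956939-95961068, plus strand), starts 3593642 bases beyond Cxcl11 and had a highly methylated region with a lower promoter. Its region had 80.9%, 79.0%, 82.1% and 78.7% in NASH and 80.4%, 81.4%, 82.1% and 80.2% in ND, a difference of -0.83 points (SE 0.817, adjusted p = 0.581). The 3 CpGs of its promoter averaged 32.3% ± 9.85 in NASH and 32.0% ± 10.3 in ND. Its largest window, at chr5:95965001-95966000, differed by -8.76 points (adjusted p = 0.365).

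Over all 111 windows of 1 kb in the 10 regions, 56 were higher and 55 lower in NASH, and 41.8% of all windows had a difference above 0. None was called by limma, and of all windows tested 0% were called. An unadjusted p under 0.05 was reached by 22 of them, 9 higher and 13 lower, against 10.6% of all windows. Groups did not overlap in 5 windows that were higher and 7 that were lower, against 6.54% of all windows in either direction. In ND, 60 of the 111 windows were above 80% and 4 were below 20%.

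Other genes of the CXC system were read in the same fit over gene regions. Of 8 regions of CXC receptors and further ligands tested (of 13 listed), none was called higher and 2 lower, against 5.99% and 3.34% of all regions. As gene spans, or with 2 kb extensions, 0 were called. The receptor gene Cxcr2, through which neutrophils sense Cxcl1 and Cxcl2, was at 80.1% ± 2.27 in NASH and 85.5% ± 1.72 in ND (-5.34 points, adjusted p = 0.0273), and Cxcl3, a further Cxcr2 ligand, at 69.6% ± 1.20 and 72.6% ± 1.29 (adjusted p = 0.0461). Leaving out 1 library at a time, Cxcr2 passed in 3 of 8 cases and Cxcl3 in 2. As a gene span Cxcl3 differed by 0.89 points (limma adjusted p = 0.795), and with every zero left out by -1.96 points (0.259). By sign, 5 of the 8 regions were higher in NASH and 3 lower. Cxcr1, another receptor gene, was at 68.0% ± 2.56 in NASH and 63.8% ± 0.978 in ND and was not called (limma adjusted p = 0.0569). With 1 library left out, 0 to 1 regions of this list were called higher and 0 to 2 lower. The median difference of this list was 0.50 points, against -0.28 for all regions.

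Of 28 regions of inducers and signalling genes tested (of 36 listed), 2 were called higher and 5 lower, against 5.99% and 3.34% of all regions, with a median difference of -0.85 points. Nfkbiz, a nuclear regulator of NF-kB target genes, was at 50.5% ± 0.895 in NASH and 46.1% ± 0.510 in ND (adjusted p = 0.00223). Il1a, a cytokine gene that induces Cxcl1, was at 57.9% ± 0.473 and 60.3% ± 0.715 (adjusted p = 0.0187). Both passed with each library left out, but not with every zero left out (adjusted p = 0.091 for Nfkbiz and 0.222 for Il1a), and Il1a did not as a gene span (0.106). Tlr4, the endotoxin receptor gene, and Ltb, a lymphotoxin gene, differed by -3.8 points (adjusted p = 0.0333) and -4.05 points (adjusted p = 0.0367) and passed in 2 of 8 cases each. With 1 library left out, 1 to 2 regions of this list were called higher and 1 to 4 lower. With every zero left out, 0 were called higher and 2 lower, and as gene spans 1 and 1.

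Marker gene regions of neutrophils and macrophages included some that were lower in NASH. Neutrophil markers averaged 64.3% to 65.6% in NASH and 67.0% to 68.4% in ND libraries, with 5 of 12 tested regions called lower and none higher, against 3.34% of all regions called lower (2 to 4 lower with 1 library left out). Among them were Mpo at 71.6% ± 2.31 in NASH and 77.2% ± 1.05 in ND, Ctsg at 70.7% ± 2.23 and 77.0% ± 1.86, Cebpe at 62.7% ± 2.46 and 68.8% ± 1.51, and Itgb2 at 77.9% ± 1.01 and 81.2% ± 1.55. Leaving out 1 library at a time, Mpo and Ctsg passed in 8 of 8 cases, Cebpe in 6 and Itgb2 in 2. Macrophage markers averaged 66.0% to 66.4% in NASH and 67.8% to 69.0% in ND, with 3 of 13 called lower, against the same 3.34% (3 to 4 with 1 library left out, and 1 as gene spans). These were Mpeg1 (-6.27 points), Lyz2 (-4.70 points) and Cd14 (-2.64 points). As a gene span Cd14 differed by 0.19 points (limma adjusted p = 0.904), and with every zero left out it was not called (0.109).

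Platelet markers averaged 55.3% to 56.6% in NASH and 56.2% to 58.0% in ND. None of 7 platelet regions tested (of 11 listed) was called, against 9.34% of all regions. The smallest p was that of Gp1bb (-2.20 points, limma adjusted p = 0.174). None of 7 lymphocyte marker regions tested (of 16 listed) was called either, the smallest p being that of Cd2 (-2.51 points, adjusted p = 0.0512). In each of these lists, 5 regions were lower in NASH and 2 higher. The median difference was -1.03 points for platelet and -1.39 for lymphocyte markers, and -2.27 for neutrophil and -1.85 for macrophage markers. All 14 hepatocyte marker regions tested were called higher, against 5.99% of all regions, with a median difference of 9.68 points. With every zero left out, 8 of them were called. The largest were Fgg at 48.4% ± 2.53 in NASH and 31.9% ± 1.34 in ND, while Fga, Fgb and Ttr were higher by 15.3, 12.0 and 11.7 points. The part of these cell types in the differences at Cxcl1, Cxcl11 and Ppbp was not tested.

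The gene regions whose levels ran most like the mean of the 10 over the 8 libraries were Olfml2b (r = 0.967), Tex55 (r = 0.967) and Bcl2l2 (r = 0.963). These Pearson correlations were picked as the highest of all regions and describe libraries that share their overall level.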

How the data were processed

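Per the labels' protocols, liver DNA was sonicated, bisulfite-treated and sequenced. The submitters' processing notes name FastQC and mm10; no aligner or caller is given in the sources used here. The authors' deposited table gives the percent methylation of each cytosine of a CpG per strand, with no read counts, so the planned read-based test was not possible. Chromosomes 1 to 5 (5 in part) and 10 to 19 were read, and 326824 positions on 85 contigs and 1 incomplete line were left out. Listed positions matched RefSeq promoter CpGs after subtracting 1 base. ND columns were assigned to the libraries titled WT, the remaining group, with their replicate numbers.

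Means per gene region, gene end (1000 bases outside to 500 inside) and 1000-base window with at least 6 positions were compared with limma 3.58.1 (R 4.3.3) with a mean-dependent prior, Benjamini-Hochberg adjusted over all features, and called under 0.05. Features without spread between libraries (34 regions, 371 ends and 11980 windows) were left out, a choice made after seeing the data. Scripts were tested on simulated data. Strand came from the promoter table, which held 8 of the 10 genes. Means were computed in Python 3.11.15 (pandas 2.3.3, numpy 2.4.6). Promoters were also searched for letters of an NF-kB site and an interferon-stimulated response element, which are not reported here.

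The 10 genes and all lists were chosen with earlier results of these data known. All 10 are named, with the largest window of each region and, of each other list, the called genes (the 4 largest differences where there were more) or the smallest p. A zero was doubtful where its 10 nearest positions had a median of at least 50%. Alternatives covered zeros, scale, prior, minimum positions, extension, strands, window size, the replicate block and each library left out.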

Additional observations from a re-analysis of the deposited data

Results flagged for a closer look

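Of 64 groups of 4 libraries looked at, 6 held a library whose gap to the nearest other took up nearly the whole range of the group, by Dixon's 95% limit, which chance passes in about 1 group in 20. In the Cxcl1 region, NASH 1 was at 59.5% with the other NASH libraries at 62.3% to 62.6%, and ND 4 was at 51.3% with the other ND libraries at 56.9% to 57.5%. Without ND 4 the Cxcl1 difference was 4.43 points (limma adjusted p = 0.0208), and without NASH 1 it was 6.65 points (0.0350). In the Cxcl2 region, ND 3 was at 61.5% with the others at 55.2% to 55.7%. At the Cxcl9 5' end, ND 3 was at 59.2% with the others at 49.1% to 50.8%. At the Cxcl5 high end, NASH 2 was at 72.9% with the others at 88.4% to 90.9%. In the window behind Cxcl2, NASH 2 was at 80.8% with the others at 65.0% to 67.0%.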

How the results depend on the processing

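The calls at single chemokine regions depend on the extent of the region and on single libraries. Against 3 of 10 regions called, 1 to 5 were called with 1 library left out, 0 for gene spans with no extension and 1 with 2 kb extensions. Over all regions, 1371 were called, 774 to 1462 with 1 library left out and 632 with every zero left out. For the ends of the 10 genes, 0 were called and 1 with ends of 2 kb outside and inside (the high end of Cxcl11, 14.4 points, adjusted p = 0.0218). Of all ends 89 were called, against 279 on the logit scale, 3 with features without spread kept (an alternative chosen after seeing the data), 270 with a constant prior variance, 0 with every zero left out, 891 with 2 kb ends and 2 to 17 with 1 library left out. Of the windows in the 10 regions, 0 were called, and 1 (upstream of Cxcl1) with a constant prior or with every zero left out. Of all windows 0 were called, against 10 on the logit scale, 4 with features without spread kept, 1951 with a constant prior, 1551 with a minimum of 20 positions, 1 with no minimum, 117 without doubtful zeros, 1701 without any zero, 1381 with 2000-base windows and 0 to 2 with 1 library left out.

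Same-numbered NASH and ND libraries did not deviate together (r = -0.05, -0.00076, 0.13 and -0.0048), so the numbers were not taken as pairs. With the replicate block, 2 of the 10 regions were called, Cxcl11 (adjusted p = 0.0246) and Cxcl15 (0.0298), while Cxcl1 (0.0607) and Ppbp (0.0559) were not, and 0 of all ends were called. Of the inducers and signalling genes, 1 was then called higher and 2 lower, without Il1a (adjusted p = 0.0532), and of the receptors and further ligands 1 was called lower.

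Signs turned for Cxcl1 with every zero left out (-0.16 points) and Ppbp as a gene span (1.20), both called above. The other signs that turned belonged to differences that were not called. Among them were the 5' ends of Cxcl9 (3.28 points) and Cxcl15 (2.97 points). As gene spans, Cxcl5 gave 1.86, Cxcl13 0.83 and Cxcl10 -0.97 points, and with 2 kb extensions Cxcl10 gave -0.21. With every zero left out, Cxcl2 gave 0.033, Cxcl9 -1.46, Cxcl10 -2.34 and the Cxcl10 5' end -1.38 points. The Ppbp 5' end gave 0.011 on the logit scale, 0.86 without doubtful or any zeros and 0.15 with 2 kb ends. The Cxcl5 high end gave 0.82 without doubtful or any zeros and 0.87 with 2 kb ends, the Cxcl15 5' end -0.35 and the Cxcl9 5' end -0.13 with 2 kb ends. With 1 library left out, signs turned for the regions of Cxcl2 (-1.10 to 0.98), Cxcl9 (-0.14 to 0.99) and Cxcl10 (-0.027 to 1.09), the 5' ends of Ppbp (-1.79 to 0.96) and Cxcl13 (-2.67 to 0.68) and the Cxcl5 high end (-3.34 to 2.66). Single windows have no value on the 500-base and 2000-base grids. The cause of these changes was not tested, and without read counts the precision of a level is not known.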
